A study of Mus musculus with 14 samples.

Results

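The comparison of 40Hz with 20Hz stimulation at 4 months was made in 7 of the 14 mice of the series, those whose label gives an age of 4 months. Of these, 4 had been stimulated at 20Hz (replicates 4, 5, 6 and 7 of the labels) and 3 at 40Hz (replicates 1, 6 and 7), each for 1 h. All 7 were wild-type males bred from 5xFAD mice (an amyloid model) on a B6SJL background, so both groups share that mixed background and neither carries the transgenes by its label. RNA of the visual cortex was sequenced, and the deposited table gives normalized read counts for 12874 genes, of which 10631 had a mean of at least 10 over the 7 mice and were tested. The other 7 mice, at 5 months (3 at 20Hz and 4 at 40Hz), are used only to set the 4-month difference beside that of the other age. No unstimulated mice are among the samples, so every value below is 40Hz relative to 20Hz. The labels do not describe the stimulus, a litter, a batch or a time of day, but each mouse has an ID of its own.

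Flicker or sound in the gamma range is known to drive cortical neurons in rhythm, and firing neurons switch on immediate-early genes such as Fos within minutes and secretory and growth factor genes such as Bdnf later. NF-kB is a transcription factor held in the cytoplasm by inhibitor proteins, among them IkBa (the Nfkbia product), and freed by kinases that act downstream of cytokine receptors. The series title ties the study to microglia, cytokines and NF-kB. A dissected cortex also holds glia, vessels and a share of its covering, the meninges, a sheet of fibroblasts, arachnoid cells and vessels on the brain surface.

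The 7 libraries held 6108717 to 13744933 recovered reads over the listed genes, with 40Hz replicate 7 the shallowest and 40Hz replicate 1 the deepest. RNA of excitatory neurons was plain in all of them: the glutamate transporter gene Slc17a7 lay between 38049 and 46042 normalized counts. The Y-linked gene Uty lay between 508 and 722, and another Y-linked gene, Ddx3y, only between 2.13 and 9.07. Several genes known as abundant in brain were listed at low levels (Apoe at 110.4 to 279, Snap25 at 318 to 533, and the microglial receptor gene P2ry12 at 3.02 to 6.39, against 1078 to 1309 for the microglial receptor gene Csf1r), and the counting of reads shared between gene models is not given in the sources. As this is bulk tissue, fewer cells of a type and less RNA per cell cannot be told apart. Among the 7 mice, 3 stood apart from the rest and touch the results. 40Hz replicate 7 had the lowest activity-induced genes, 20Hz replicate 7 the lowest meningeal and the highest dentate gyrus genes (C1ql2 at 1354 against 159 to 539.8 in the other mice at 20Hz), and 40Hz replicate 1 the highest meningeal and haemoglobin genes. Beside the list medians that these mice move most, the value without the mouse is given.

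Between the frequencies no gene passed the test across all genes. Limma called 0 of 10631 genes (0%) at a threshold of 0.05 after adjustment. Perp came nearest, at an adjusted p of 0.117. Before adjustment, 445 genes (4.19%) passed 0.05. Of these, 249 were higher (2.34% of those tested) and 196 lower at 40Hz (1.84%). All 3 mice at 40Hz lay above all 4 at 20Hz for 281 genes (2.64%), and below them for 224 (2.11%). The edgeR quasi-likelihood test on the recovered reads called 1 gene, Perp (adjusted p = 0.0495), and DESeq2 called 8, all higher at 40Hz. By unadjusted p, 436 genes passed in edgeR and 373 in DESeq2. At the median, the 95% interval extended 0.40 (log2), or 1.32-fold, to each side, and for 82.6% of genes it stayed inside 2-fold. These intervals are not adjusted for the number of genes. For a typical gene, differences well under 1.32-fold were not detectable with these 7 mice. Larger ones could also go uncalled after adjustment, as Perp did in limma at 2.01-fold, so the count of 0 does not exclude them. Values below are in the order 20Hz replicates 4, 5, 6 and 7, then 40Hz replicates 1, 6 and 7; differences are 40Hz minus 20Hz on the log2(normalized count + 1) scale, ± the standard error of limma.

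The genes with the smallest p-values, and all 8 that DESeq2 called, were higher at 40Hz. Perp encodes a membrane protein of desmosomes. It measured 239.9, 231, 263 and 219 at 20Hz and 612, 368 and 488 at 40Hz, a difference of 1.01 ± 0.16 (2.01-fold, 95% interval 0.67 to 1.34). The lowest mouse at 40Hz stood well above the highest at 20Hz. DESeq2 called Perp too (adjusted p = 1.44e-05), and called it in all 7 fits that left out 1 mouse. Cyp2f2, a cytochrome P450 gene, was close to 0 at 20Hz, with 2.35, 1.74, 0 and 1.51 at 20Hz and 71.1, 9.79 and 33.7 at 40Hz. Its difference was 3.77 ± 0.68 (95% interval 2.32 to 5.23), and the adjusted p was 0.313 in limma and 1.80e-04 in DESeq2. The Cyp2f2 signal came mainly from 40Hz replicates 1 and 7, and 40Hz replicate 6 lay nearest to the 20Hz mice. Cyp2f2 passed the minimum mean of 10 only through the mice at 40Hz, so its place among the genes tested rests on that group.

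**Figure D1:**
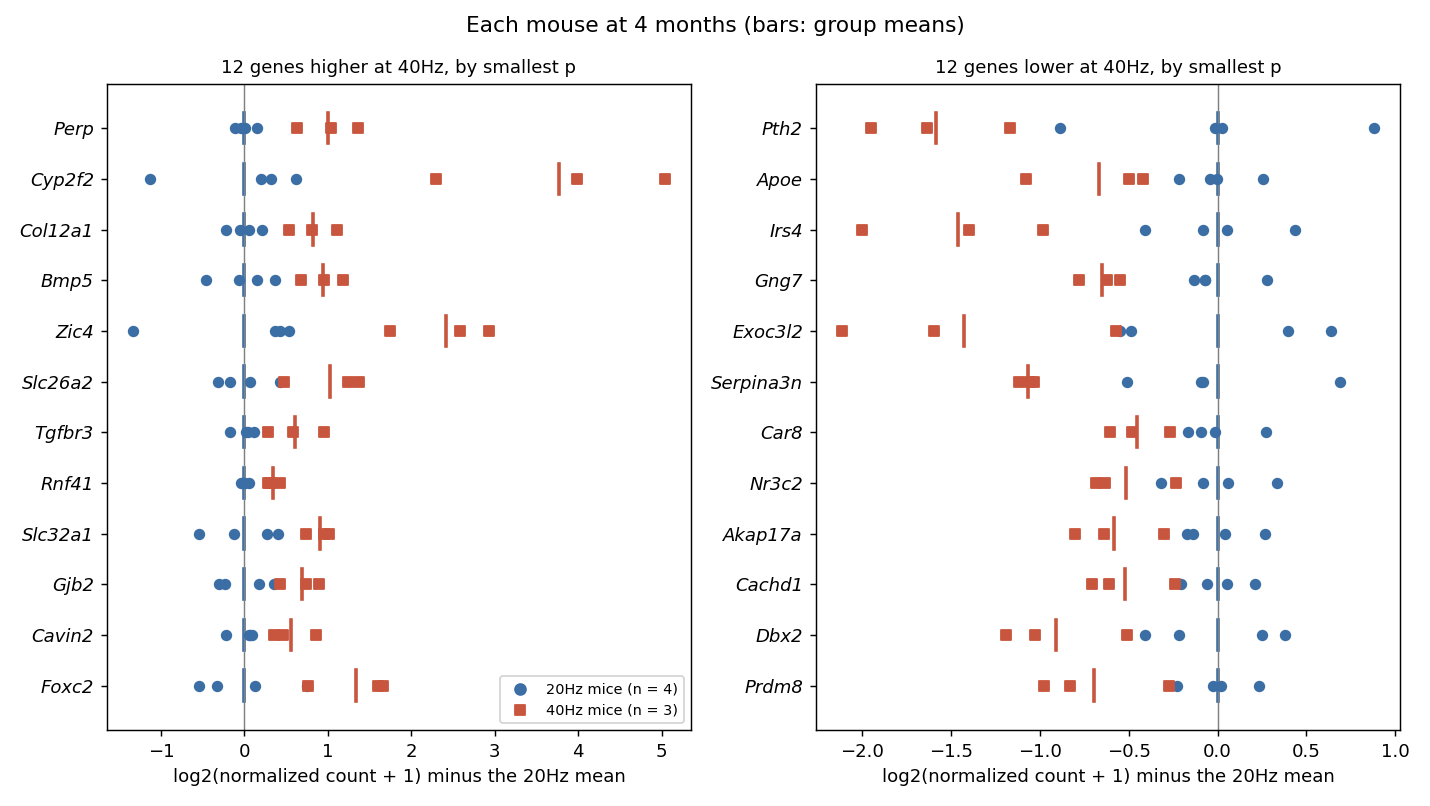
Level in each mouse of the 12 genes with the smallest p in each direction, as log2(normalized count + 1) minus the mean of the 4 mice at 20Hz (circles, 20Hz; squares, 40Hz; bars, group means). The groups do not overlap for any of these genes except Nr3c2, and Cyp2f2 shows the widest gap, with a mean difference of 3.77; the genes were chosen by these same values.

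Zic4, a zinc finger transcription factor gene, measured 1.18, 6.96, 6.39 and 6.05 at 20Hz and 31.8, 17.4 and 40.8 at 40Hz. Like Cyp2f2, Zic4 passed the minimum mean of 10 only through the mice at 40Hz. Foxc2, a forkhead factor gene of mesenchyme and vessels, measured 56.5, 78.3, 120.4 and 48.4 at 20Hz and 228, 122 and 218 at 40Hz. Their differences were 2.42 ± 0.52 and 1.34 ± 0.31, and for Foxc2 the highest mouse at 20Hz came close to the lowest at 40Hz. Bmp5, a ligand of the bone morphogenetic protein family, measured 123, 106, 143 and 80.2 at 20Hz and 216, 177 and 252 at 40Hz, a difference of 0.94 ± 0.20. The matrix gene Col12a1, which encodes a collagen that decorates fibrils, measured 145, 129, 156 and 174 at 20Hz and 324, 218 and 264 at 40Hz, with 0.82 ± 0.16. Slc26a2, a sulfate transporter gene that serves the making of proteoglycans, measured 155, 131, 199 and 119.5 at 20Hz and 386, 207 and 351 at 40Hz, with 1.03 ± 0.22. For each of these 5 genes, 40Hz replicate 6 was the lowest of the 3 mice at 40Hz.

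DESeq2 called Zic4, Foxc2, Bmp5, Col12a1 and Slc26a2 as well, with adjusted p-values of 0.0140, 0.0140, 0.0140, 0.00847 and 0.00847. The eighth was Cdh1, the gene of the epithelial adhesion protein E-cadherin, which lies outside the rule for named genes and was singled out after its values were seen. Cdh1 measured 91.7, 57.4, 134 and 106 at 20Hz and 282, 128 and 295 at 40Hz, a difference of 1.23 ± 0.34, and here the groups overlapped. Of the 7 fits that left out 1 mouse, Cyp2f2 was called by DESeq2 in 6, Foxc2, Col12a1 and Slc26a2 in 4 each, Bmp5 in 3, and Cdh1 and Zic4 in 2 each. The number of DESeq2 calls moved from 1 without 40Hz replicate 1 to 67 without 40Hz replicate 6; the 67 held 43 higher and 24 lower genes and included all 8.

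Gjb2, which encodes a gap junction protein, connexin 26, measured 416, 551, 626 and 395 at 20Hz and 909, 658 and 818 at 40Hz, with 0.69 ± 0.16. Tgfbr3 encodes betaglycan, a co-receptor for transforming growth factor beta, and measured 452, 445, 473 and 387 at 20Hz and 851, 534 and 658 at 40Hz, with 0.61 ± 0.14. Cavin2, a gene of the caveolar coat found in vessels, measured 388, 395, 318 and 386 at 20Hz and 674, 509 and 476 at 40Hz, with 0.56 ± 0.14. Each of these 3 had its highest value in 40Hz replicate 1. Rnf41 and Slc32a1 complete the 12. Rnf41, a ubiquitin ligase gene, measured 1898, 1922, 1976 and 2041 at 20Hz and 2389, 2635 and 2421 at 40Hz, with 0.34 ± 0.081. Rnf41 had the smallest difference of the 12, and also the smallest standard error. Slc32a1, which encodes the transporter that loads GABA into vesicles, measured 96.4, 73.1, 105 and 54.5 at 20Hz and 134, 162 and 156 at 40Hz, with 0.90 ± 0.22.

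Genes of fibroblasts and meninges were higher at 40Hz as a list. Of its 18 tested members, 16 were higher and 2 lower, with a median difference of 0.49 against -0.0035 over all genes tested. At an unadjusted p under 0.05, 8 were higher and 0 lower, against 2.34% and 1.84% of all genes tested. After adjustment 0 passed. For 1 member the groups did not overlap, with 40Hz higher, against 2.64% of all genes. Islr, a secreted leucine-rich protein gene of mesenchymal cells, measured 38.8, 35.7, 70.3 and 42.4 at 20Hz and 137, 62.0 and 124 at 40Hz, a difference of 1.16 ± 0.30. Mgp, a matrix protein gene that restrains calcification, measured 378, 322, 576 and 272 at 20Hz and 1067, 523 and 953 at 40Hz, with 1.12 ± 0.33. The anion transporter gene Slc22a6, known from leptomeninges and kidney, measured 199.9, 202, 300.4 and 118 at 20Hz and 384, 335 and 335 at 40Hz, with 0.85 ± 0.25. Slc22a6 was the member whose groups did not overlap. Ptgds, the prostaglandin D synthase gene that is abundant in leptomeninges, measured 1395, 1135, 1819 and 1174 at 20Hz and 2302, 1737 and 2552 at 40Hz, with 0.68 ± 0.17. Its 40Hz replicate 6 fell among the 20Hz mice.

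The members in this paragraph lie outside the rule for named genes and were picked out after their values were seen. Those with an unadjusted p under 0.05 were Ogn, Slc13a4, Fmod and Col1a2, at differences of 1.03, 1.00, 0.85 and 0.51. Crym and Col1a1 were the 2 lower members, at -0.12 and -0.044, the sign of Col1a1 depending on single mice; Crym is also known from deep-layer neurons. The summed level of the 18 members in the table was 6398, 5953, 8146 and 5206 normalized counts at 20Hz and 11486, 7431 and 10676 at 40Hz, so the groups overlapped through 20Hz replicate 6 and 40Hz replicate 6. The median difference of the list was 0.28 without 20Hz replicate 7, 0.36 without 40Hz replicate 1 and 0.72 without 40Hz replicate 6, and 15 to 17 of the 18 members were higher in each of the fits that left out 1 mouse. How much meninges came with each dissection is not recorded, and its part in these differences was not tested.

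**Figure D2:**
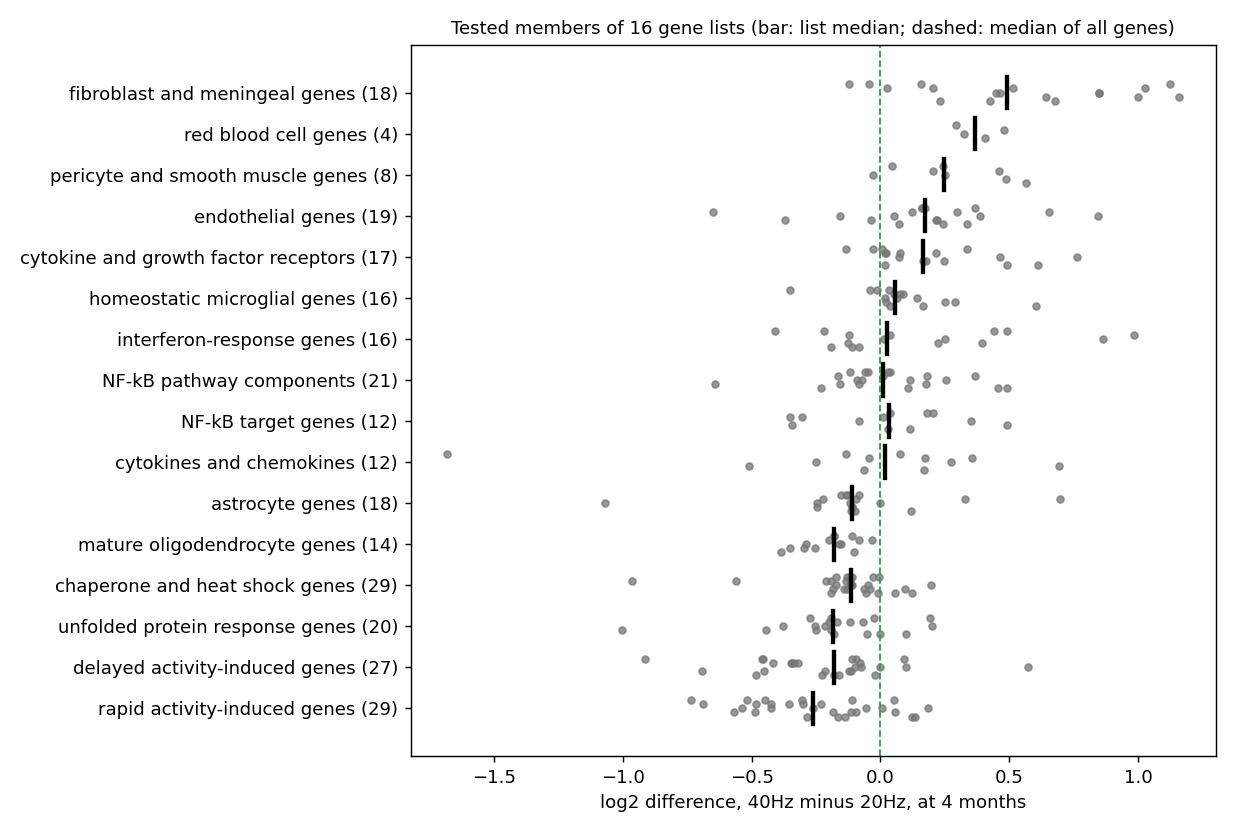
Log2 difference, 40Hz minus 20Hz, of each tested member of 16 gene lists (points; number of members in brackets), with the median of each list (bar) and of all genes tested (dashed line, -0.0035). Of these 16, the fibroblast and meningeal list lies farthest to the right, with a median of 0.49, and the list of rapid activity-induced genes farthest to the left, with -0.26.

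Most vessel and blood genes were also higher, by smaller amounts. Of 8 tested pericyte and smooth muscle genes, 7 were higher, with a median of 0.25, and of 19 endothelial genes 15 were higher, with 0.17. Tagln, an actin-binding protein gene of smooth muscle, measured 27.1, 27.8, 25.6 and 22.7 at 20Hz and 44.6, 42.4 and 30.2 at 40Hz, a difference of 0.57 ± 0.26. Cdh5, the gene of VE-cadherin at endothelial junctions, measured 7.06, 7.83, 7.46 and 9.08 at 20Hz and 15.1, 15.2 and 14.2 at 40Hz, with 0.84 ± 0.39. For both genes the groups did not overlap, but Cdh5 rests on low counts and passed the minimum mean of 10 only through the mice at 40Hz. In the lists the groups were apart, with 40Hz higher, for 1 of the 8 pericyte and smooth muscle genes and 2 of the 19 endothelial genes. The share over all genes was 2.64%. At an unadjusted p under 0.05 in limma, 1 of the 8 and 2 of the 19 were higher and 0 lower, against 2.34% and 1.84% of all genes tested. Abcb1a, the drug efflux pump gene of the blood-brain barrier, measured 356, 385, 411 and 306 at 20Hz and 627, 339 and 481 at 40Hz, with 0.37 ± 0.18, and its highest value was in 40Hz replicate 1. All 4 red blood cell genes were higher, with a median of 0.37 that was 0.077 without 40Hz replicate 1. The sum of these haemoglobin genes was 7012 in that mouse and 3099.9 to 4720.4 in the other 6, and its part in the vessel values was not tested. Without 40Hz replicate 1 the endothelial median was 0.083 with 11 of 19 members higher, and without 20Hz replicate 4 it was 0.075 with 13 of 19.

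Among genes lower at 40Hz, Apoe encodes the main lipid carrier of the brain, made by astrocytes and by reactive microglia. It measured 227, 233, 279 and 201 at 20Hz and 110.4, 174 and 165 at 40Hz, a difference of -0.66 ± 0.18 (95% interval -1.04 to -0.29). These levels are low for brain, as said above, so the counts of Apoe are uncertain. Serpina3n, a protease inhibitor gene of reactive astrocytes, measured 25.9, 34.8, 35.1 and 60.5 at 20Hz and 16.6, 17.4 and 17.7 at 40Hz, with -1.07 ± 0.31. For both genes all 3 mice at 40Hz were below all 4 at 20Hz, and neither passed the adjustment (adjusted p of 0.875 and 0.890 in limma). The 3 values of Serpina3n at 40Hz lay between 16.6 and 17.7.

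Pth2, the gene of a hypothalamic and thalamic neuropeptide, was low throughout, with 15.3, 29.6, 54.3 and 28.7 at 20Hz and 6.81, 8.70 and 12.4 at 40Hz, a difference of -1.58 ± 0.41. The adaptor gene Irs4 measured 21.2, 27.8, 19.2 and 15.1 at 20Hz and 9.83, 4.35 and 7.10 at 40Hz, with -1.46 ± 0.40. Exoc3l2, a gene related to the exocyst, measured 37.6, 87.0, 73.5 and 39.3 at 20Hz and 12.1, 37.0 and 17.7 at 40Hz, with -1.43 ± 0.39. These 3 rest on low counts, and Pth2 and Irs4 passed the minimum mean of 10 only through the mice at 20Hz. Gng7, a G protein subunit gene, measured 108, 108, 103 and 138 at 20Hz and 73.3, 77.3 and 65.7 at 40Hz, with -0.65 ± 0.18. The carbonic anhydrase-related gene Car8 measured 506, 652, 535 and 481 at 20Hz and 387, 448 and 355 at 40Hz, with -0.45 ± 0.13. Nr3c2 encodes the mineralocorticoid receptor and measured 1027, 1335, 1212 and 1617 at 20Hz and 796, 1088 and 827 at 40Hz, with -0.52 ± 0.15; it alone of the 12 had overlapping groups. The other 4 were Akap17a, Cachd1, Dbx2 and Prdm8, with differences of -0.58, -0.52, -0.91 and -0.69 and groups that did not overlap.

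Activity-induced genes carried lower levels at 40Hz in most members, and the promoters of 4 of them are shown because they hold the cAMP response element through which firing is known to reach these genes. The sequences are the 250 bases before the start in RefSeq's table on GRCm38.p6, a build older than the GRCm39 of the files: chr12:85473640-85473889 for Fos on the plus strand, chr15:101266596-101266845 for Nr4a1 on the plus strand, chr17:26508473-26508722 for Dusp1 on the minus strand and chr16:23890845-23891094 for Sst on the minus strand. Capitals mark TGACG, the core of the element, or its other strand CGTCA, and where both overlap they spell the full palindrome TGACGTCA.
Fos: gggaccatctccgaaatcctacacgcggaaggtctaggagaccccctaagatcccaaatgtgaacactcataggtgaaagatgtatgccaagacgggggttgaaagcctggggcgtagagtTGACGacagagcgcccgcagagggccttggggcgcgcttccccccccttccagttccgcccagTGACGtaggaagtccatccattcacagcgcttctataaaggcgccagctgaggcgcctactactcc
Nr4a1: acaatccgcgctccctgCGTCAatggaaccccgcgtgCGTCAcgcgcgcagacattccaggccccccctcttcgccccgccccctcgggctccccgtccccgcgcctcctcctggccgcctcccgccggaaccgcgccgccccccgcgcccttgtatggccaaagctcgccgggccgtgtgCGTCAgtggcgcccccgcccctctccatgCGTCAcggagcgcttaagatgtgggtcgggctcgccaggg
Dusp1: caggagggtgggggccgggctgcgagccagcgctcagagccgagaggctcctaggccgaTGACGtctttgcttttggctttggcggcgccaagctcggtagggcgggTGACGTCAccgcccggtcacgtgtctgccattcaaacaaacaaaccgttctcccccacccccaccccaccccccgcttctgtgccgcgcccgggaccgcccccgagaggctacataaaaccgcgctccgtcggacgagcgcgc
Sst: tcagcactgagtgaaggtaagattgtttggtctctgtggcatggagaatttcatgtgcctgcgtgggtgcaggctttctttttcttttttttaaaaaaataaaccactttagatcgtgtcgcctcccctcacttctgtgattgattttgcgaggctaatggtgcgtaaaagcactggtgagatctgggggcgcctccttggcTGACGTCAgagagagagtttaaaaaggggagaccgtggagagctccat
The core was in 2 places for Fos, in 4 for Nr4a1, and in Dusp1 and Sst it formed the palindrome. By symbol 23 of the 29 tested rapid genes matched the table, with 28 windows, and 19 of these windows (67.9%) held the core on either strand, against 17.8% of all 32851 windows of that length. For delayed genes, to which Sst belongs, the core was in 34.6% of 26 windows, and for unfolded protein response genes, described further on, in 50% of 18. The palindrome was in 7.14% of the rapid windows and 11.5% of the delayed ones, against 1.55% of all windows. A match is a description of the letters and shows no binding.

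Of 29 tested rapid genes, 23 were lower and 6 higher at 40Hz, with a median difference of -0.26. At an unadjusted p under 0.05 there was 1 member, lower, against 1.84% of all genes tested, and the groups overlapped for all 29. Fos, a subunit of the AP-1 transcription factor, measured 1630.1, 1569, 900.0 and 1415 at 20Hz and 729, 1533 and 470.3 at 40Hz, a difference of -0.73 ± 0.46 (95% interval -1.87 to 0.40). Nr4a1, an orphan nuclear receptor gene, measured 1490.1, 1201, 929 and 1244 at 20Hz and 1119.8, 1301 and 564 at 40Hz, with -0.36 ± 0.32. The phosphatase gene Dusp1, which turns off MAP kinases, measured 1715, 1343, 791 and 1661 at 20Hz and 1049, 1395 and 841 at 40Hz, with -0.30 ± 0.32. In these 3, 40Hz replicate 6 was as high as the 20Hz mice and 40Hz replicate 7 was the lowest of the 40Hz mice. Egr4, a zinc finger factor gene and the member with the unadjusted p under 0.05, measured 1710.0, 1869.6, 1460.2 and 1988 at 20Hz and 1298, 1691 and 957 at 40Hz, with -0.45 ± 0.17. Npas4, a factor gene specific to neuronal activity, measured 629, 441, 507 and 457 at 20Hz and 557, 428 and 222 at 40Hz, with -0.42 ± 0.29. Arc, a synaptic gene, measured 781, 427, 256 and 869.9 at 20Hz and 509.6, 873 and 108 at 40Hz, with -0.52 ± 0.88. Arc spanned 108 to 873 among the mice at 40Hz, and its difference was 0.35 without 40Hz replicate 7. Egr1, another zinc finger factor gene, measured 19378, 17171, 16443 and 15752 at 20Hz and 19321, 21338 and 10846 at 40Hz, with -0.057 ± 0.24, and its sign turned too without that mouse.

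Without 40Hz replicate 7 the median of the rapid list was -0.10, with 17 members lower and 12 higher; without 40Hz replicate 6 it was -0.48, with 27 of 30 lower. The direction of the list was the same in every fit that left out 1 mouse, its size was not. Fosb and Junb, partners of Fos, had differences of -0.69 ± 0.41 and -0.49 ± 0.28. The angiogenic matrix gene Ccn1 had -0.54 ± 0.27 and the stress gene Gadd45b -0.30 ± 0.18. None of these intervals excluded 0.

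Of 27 tested delayed genes, 24 were lower and 3 higher, with a median of -0.18. At an unadjusted p under 0.05, 4 were lower, against 1.84% of all genes tested. Bdnf, the gene of brain-derived neurotrophic factor, measured 406, 444, 342 and 392 at 20Hz and 268, 405 and 217 at 40Hz, a difference of -0.46 ± 0.18. Penk, which encodes the precursor of enkephalins, measured 231, 281, 185 and 194 at 20Hz and 157, 189 and 138 at 40Hz, with -0.45 ± 0.17. The kinase gene Pim1 measured 70.6, 60.0, 50.1 and 59.0 at 20Hz and 28.7, 58.8 and 28.4 at 40Hz, with -0.69 ± 0.27. Sst, the somatostatin gene of a class of inhibitory neurons, measured 85.9, 117, 119 and 115 at 20Hz and 75.6, 88.1 and 79.9 at 40Hz, with -0.42 ± 0.18. In Bdnf, Penk and Pim1 the group overlap came from 40Hz replicate 6, and in Sst from 20Hz replicate 4 and 40Hz replicate 6. Nptx2, a secreted synaptic organizer gene, measured 3655, 4808, 3416 and 4443 at 20Hz and 2387, 4628 and 2974 at 40Hz, with -0.34 ± 0.24. Without 40Hz replicate 7 the median of the list was -0.068, with 19 of 27 members lower. Feedback genes of the MAP kinase pathway were lower in 11 of 14 members, with a median of -0.14 and 0 at an unadjusted p under 0.05, but without 40Hz replicate 7 the median was 0.041 with 11 of 14 higher; Dusp5 had -0.35 ± 0.29.

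**Figure D3:**
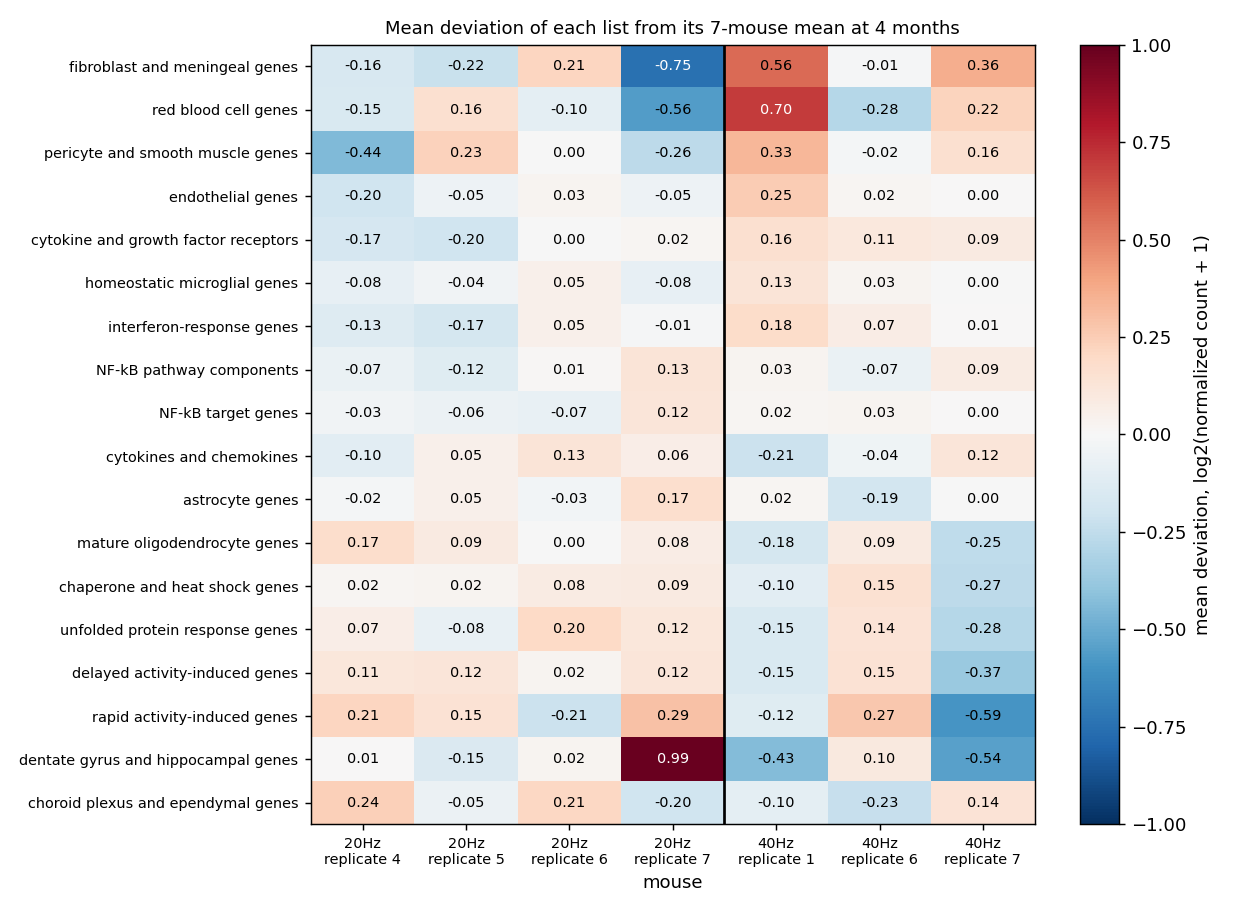
Mean deviation of each of 18 gene lists from its mean over the 7 mice, on the log2(normalized count + 1) scale, with red above and blue below and the vertical line between 20Hz and 40Hz. 40Hz replicate 7 is lowest in rapid activity-induced genes (-0.59), 20Hz replicate 7 is lowest in fibroblast and meningeal genes (-0.75) and highest in dentate gyrus genes (0.99), and 40Hz replicate 1 is highest in red blood cell genes (0.70).

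Genes of the unfolded protein response, by which the endoplasmic reticulum raises its chaperones under load, were lower in 17 of 20 tested members, with a median of -0.19. At an unadjusted p under 0.05, 4 were lower and 0 higher, against 1.84% and 2.34% of all genes tested. The promoters of Creld2 and Hsp90b1 are shown because they hold the endoplasmic reticulum stress element that this response is known to act through, spelled CCAAT, then 9 bases, then CCACG, and given in capitals on either strand. They lie at chr15:88819396-88819645 on the plus strand for Creld2 and at chr10:86705445-86705694 on the minus strand for Hsp90b1, again the 250 bases before the start on GRCm38.p6.
Creld2: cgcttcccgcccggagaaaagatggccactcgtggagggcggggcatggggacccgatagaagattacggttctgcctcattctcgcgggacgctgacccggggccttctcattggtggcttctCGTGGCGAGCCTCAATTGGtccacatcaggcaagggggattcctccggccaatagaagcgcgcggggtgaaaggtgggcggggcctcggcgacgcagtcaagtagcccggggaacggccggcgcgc
Hsp90b1: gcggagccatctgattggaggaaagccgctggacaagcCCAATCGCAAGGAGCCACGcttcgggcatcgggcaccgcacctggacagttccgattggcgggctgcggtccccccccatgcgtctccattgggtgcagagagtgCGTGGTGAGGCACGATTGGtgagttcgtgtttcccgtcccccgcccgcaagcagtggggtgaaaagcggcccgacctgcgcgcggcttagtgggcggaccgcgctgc
The element was found once in Creld2 and at 2 places in Hsp90b1. Of the 18 tested members with an entry in the table, 8 held it (44.4% of 18 windows), against 0.113% of all windows. The list is of known genes of this response, so the share does not bear on the difference between 40Hz and 20Hz. Creld2, a chaperone gene of the secretory pathway, measured 321, 292, 389 and 443 at 20Hz and 219, 348 and 236 at 40Hz, a difference of -0.44 ± 0.18. Pdia3, a disulfide isomerase gene, measured 2219, 2327, 2494 and 2351 at 20Hz and 1914, 2315 and 1858 at 40Hz, with -0.22 ± 0.093. Sesn2, a stress sensor gene, measured 519, 503, 405 and 517 at 20Hz and 348, 457 and 323 at 40Hz, with -0.38 ± 0.14. Ddit3, which encodes the factor CHOP, measured 596, 564, 594 and 620.3 at 20Hz and 505, 547 and 449 at 40Hz, with -0.25 ± 0.11, and was the only one of the 4 whose groups did not overlap. It was also the only 1 of the 20 members apart with 40Hz lower, against 2.11% of all genes tested.

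Hsp90b1 itself lies outside the rule for named genes and is given because its promoter is shown: it measured 4408, 4828, 5332 and 4881 at 20Hz and 3669, 4903 and 4960.0 at 40Hz, with -0.12 ± 0.11, and 0.024 without 40Hz replicate 1. The median of the list was -0.089 without 40Hz replicate 7, with 12 of 20 members lower. Chaperone and heat shock genes were lower in 25 of 29 members, with a median of -0.12; without 40Hz replicate 1 it was -0.042 and without 40Hz replicate 7 it was -0.072, with 19 of 29 lower in each. Cct4, a subunit gene of the chaperonin that folds actin and tubulin, measured 1095, 1065, 1143 and 1185 at 20Hz and 957, 1046 and 909 at 40Hz, with -0.21 ± 0.093. Ahsa1, which activates HSP90, had -0.17 ± 0.10. For both the groups did not overlap, as was so for 2.11% of all genes tested with 40Hz lower. At an unadjusted p under 0.05 in limma, 1 of the 29 was lower and 0 higher, against 1.84% and 2.34% of all genes.

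The NF-kB and cytokine lists had medians close to that of all genes, and the medians of NF-kB components and cytokines turned sign with 1 mouse left out. Of 21 tested NF-kB pathway components, 11 were higher and 10 lower, with a median of 0.0091 and 0 at an unadjusted p under 0.05. Nfkbia measured 724, 492, 414 and 729 at 20Hz and 745, 552 and 665 at 40Hz, a difference of 0.18 ± 0.20 (95% interval -0.25 to 0.61). The groups overlapped. Nfkb1, the gene of the p50 and p105 subunits, lay below the minimum, at 7.06, 7.83, 15.98 and 9.08 at 20Hz and 12.9, 2.18 and 10.6 at 40Hz. Tnfrsf1b, a receptor gene for tumour necrosis factor, measured 38.8, 69.6, 75.6 and 86.2 at 20Hz and 82.4, 86.0 and 108 at 40Hz, with 0.49 ± 0.25. The signalling genes Tab2 and Irak4 had 0.46 ± 0.27 and 0.37 ± 0.23, and the deubiquitinase gene Cyld, a brake on the pathway, had -0.64 ± 0.48. Each of these 4 intervals held 0.

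Of the 28 listed NF-kB target genes, 12 were tested and 8 of these were higher, with a median of 0.032 and 0 at an unadjusted p under 0.05. Birc2, an inhibitor of cell death, measured 24.7, 17.4, 24.5 and 34.8 at 20Hz and 32.5, 41.3 and 31.9 at 40Hz, with 0.49 ± 0.29. Bcl2l1, which encodes the survival protein BCL-XL, measured 139, 141, 128 and 136 at 20Hz and 144, 168 and 159.7 at 40Hz, with 0.20 ± 0.15. Bcl2l1 was the 1 member whose groups did not overlap, against 2.64% of all genes with 40Hz higher. Of 39 listed cytokines and chemokines 12 were tested, 6 higher and 6 lower, with a median of 0.016. Cxcl12, a chemokine gene of meninges and vessels, measured 1457, 2055, 2198 and 1576 at 20Hz and 2504, 1951 and 2481 at 40Hz, with 0.36 ± 0.15. The neutrophil chemokine gene Cxcl5 was low, with 10.6, 21.7, 9.59 and 16.6 at 20Hz and 0, 7.62 and 10.6 at 40Hz, and a difference of -1.68 ± 0.73. The chemokine gene Cxcl16 measured 12.9, 9.57, 17.0 and 10.6 at 20Hz and 21.9, 21.8 and 17.7 at 40Hz, with 0.69 ± 0.35. Cxcl12 and Cxcl5 were the 2 members at an unadjusted p under 0.05, 1 in each direction. Over all genes tested, 2.34% were higher and 1.84% lower at that threshold. Cxcl5 passed the minimum mean of 10 only through the mice at 20Hz. Cxcl10, Ccl3, Ccl4 and Il18 had means under the minimum and single values of 0 to 19.7 normalized counts, and are not described further.

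Receptors of cytokines and growth factors were higher in 15 of 17 members, with a median of 0.17. The median was 0.075 without 20Hz replicate 4, with 12 of 17 higher. Of the members 1 was higher at an unadjusted p under 0.05, against 2.34% of all genes. It was Tgfbr3, given above, which is also known from fibroblasts and vessels. Among interferon-response genes 9 of 16 were higher, with a median of 0.025, and 3 were higher at an unadjusted p under 0.05, against 2.34% of all genes. The median was -0.031 without 20Hz replicate 5 or 40Hz replicate 6, -0.026 without 40Hz replicate 1 and 0.16 without 40Hz replicate 7. Rsad2, which encodes the antiviral protein viperin, measured 57.6, 47.8, 52.2 and 60.5 at 20Hz and 181, 70.7 and 99.4 at 40Hz, a difference of 0.99 ± 0.27. Usp18, which removes the ubiquitin-like protein ISG15, measured 14.1, 16.5, 15.98 and 12.1 at 20Hz and 25.0, 27.2 and 30.2 at 40Hz, with 0.86 ± 0.30. Ifit1, an RNA sensor gene, measured 77.6, 45.2, 76.7 and 69.6 at 20Hz and 91.5, 108 and 81.6 at 40Hz, with 0.49 ± 0.22. In these 3 genes every mouse at 40Hz lay above every mouse at 20Hz, as was so for 2.64% of all genes tested. The Rsad2 value of 40Hz replicate 1 was the highest by far. The membrane gene Ifitm3 had 0.39 ± 0.18, with overlapping groups.

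Microglial lists had medians near 0. Homeostatic genes were higher in 13 of 16 members by small amounts, with a median of 0.058 and 0 at an unadjusted p under 0.05. Cx3cr1, the fractalkine receptor gene, measured 1941, 2147, 2214 and 2402 at 20Hz and 2049.9, 2242 and 2298 at 40Hz, a difference of 0.016 ± 0.091 with a 95% interval of -0.18 to 0.21. Csf1r, the receptor gene on which microglial survival depends, measured 1133, 1078, 1208 and 1309 at 20Hz and 1201, 1245 and 1278 at 40Hz, with 0.074 ± 0.094 and -0.13 to 0.27. For these 2 genes the intervals exclude a difference of 1.32-fold in either direction. Tmem119 had 0.089 ± 0.21, Siglech 0.60 ± 0.47 and the identity factor gene Sall1 0.29 ± 0.25.

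Disease-associated microglial genes were higher in 11 of 16 members, with a median of 0.021; Apoe was lower, as given above, and Lyz2, a lysozyme gene of macrophages, was higher, with 162, 139, 198 and 182 at 20Hz and 293, 201 and 239.6 at 40Hz and a difference of 0.52 ± 0.17. Lyz2 is also made by macrophages of the meninges, whose share was not tested. Complement and phagocytosis genes were higher in 7 of 12 members, with a median of 0.04. The Fc receptor gene Fcgr1 measured 68.2, 70.5, 70.3 and 95.3 at 20Hz and 46.1, 39.2 and 71.0 at 40Hz, with -0.57 ± 0.24. Megf10, an engulfment receptor gene of astrocytes, measured 1772, 1985, 1722 and 1761 at 20Hz and 1527, 1737 and 1386 at 40Hz, with -0.23 ± 0.10. Both were lower at an unadjusted p under 0.05, against 1.84% of all genes tested, with overlapping groups.

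**Figure D4:**
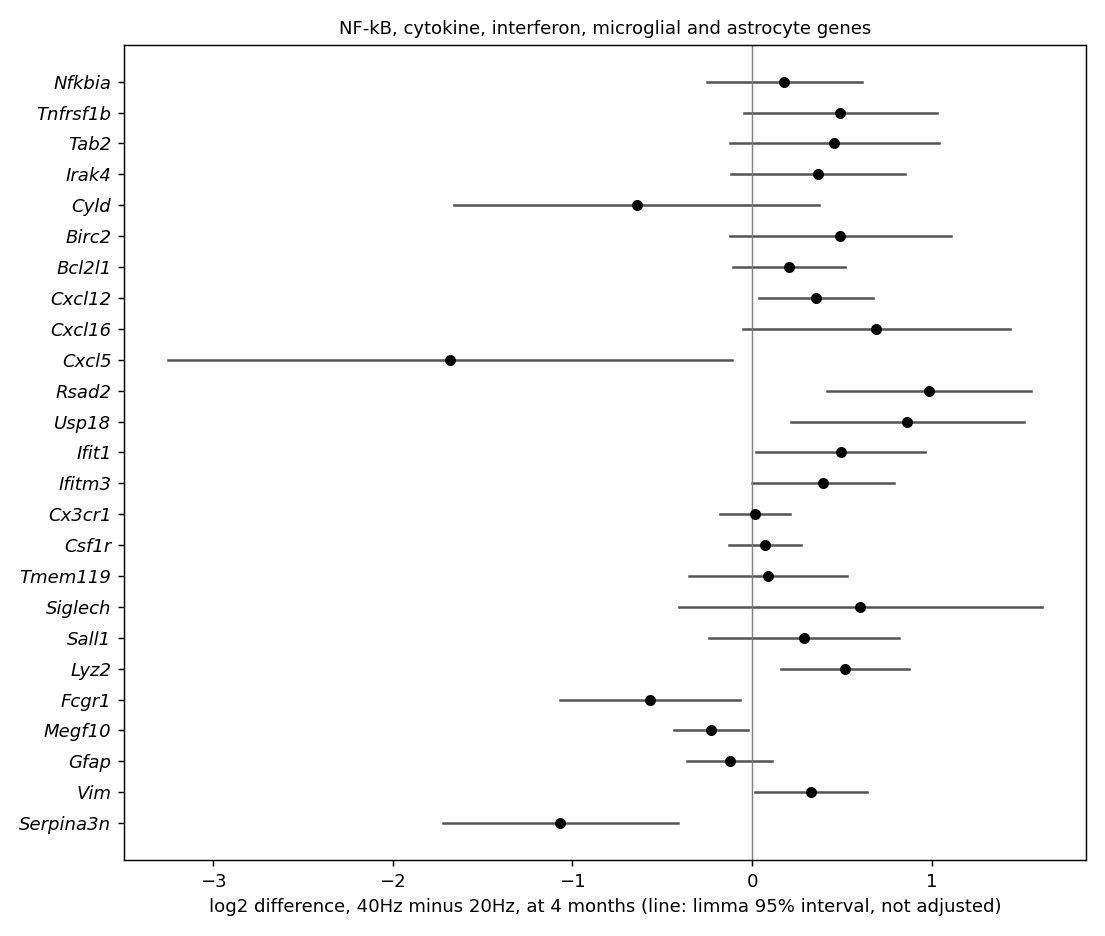
Log2 difference, 40Hz minus 20Hz, of 25 genes (points) with the limma 95% interval (lines, not adjusted for the number of genes). Rsad2 at 0.99 and Serpina3n at -1.07 are the most distant from 0 among the genes whose groups did not overlap, Cxcl5 at -1.68 rests on low counts, and Cx3cr1 at 0.02 has one of the narrowest intervals.

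Astrocyte genes were lower in 14 of 18 members, with a median of -0.11. Gfap, the intermediate filament gene of astrocytes, measured 535, 549, 649 and 641 at 20Hz and 569, 516 and 543 at 40Hz, with -0.13 ± 0.11. The filament gene Vim measured 368, 569.8, 517 and 398 at 20Hz and 619, 536 and 566 at 40Hz, with 0.33 ± 0.15, and is also expressed by vessels and meninges. Id4, a transcriptional inhibitor gene, measured 5565, 5292, 5319 and 5154 at 20Hz and 4916, 4638 and 4827 at 40Hz, with -0.15 ± 0.072, and its groups did not overlap.

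All 14 tested genes of mature oligodendrocytes, the cells that make myelin, were lower at 40Hz, with a median of -0.18. At an unadjusted p under 0.05 there were 2, against 1.84% lower over all genes tested. Opalin, a membrane protein gene of central myelin, measured 654, 767, 669 and 711 at 20Hz and 514, 526 and 607 at 40Hz, a difference of -0.35 ± 0.11. Ugt8a, which makes the myelin lipid galactocerebroside, measured 914, 889, 758 and 616 at 20Hz and 634, 724 and 470.3 at 40Hz, with -0.39 ± 0.16. Opalin separated the groups and Ugt8a did not. Trf, the transferrin gene, had -0.20 ± 0.10, and Fa2h, a lipid hydroxylase gene, -0.18 ± 0.11. Without 40Hz replicate 7 the median was -0.082, with 11 of 14 lower. Genes of oligodendrocyte precursors were lower in 8 of 13 members, with a median of -0.13 that was -0.062 without 20Hz replicate 7; the lineage factor gene Olig1 measured 5782, 6677, 5837 and 6177 at 20Hz and 4776, 5336 and 5691 at 40Hz, with -0.22 ± 0.083 and groups that did not overlap. The sums of the 4 defining oligodendrocyte markers were 13774 to 16929 at 20Hz and 11567 to 17178 at 40Hz, so the groups overlapped.

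Neuronal lists had medians near 0, and most turned sign with 1 mouse left out. Excitatory neuron genes were higher in 10 of 19 members (median 0.008), inhibitory neuron genes in 8 of 17 (-0.023), upper-layer and layer 4 genes in 9 of 14 (0.018) and deep-layer genes in 9 of 17 (0.049). GABA receptor genes were higher in 5 of 11 (-0.048), synaptic vesicle genes in 13 of 23 (0.012) and voltage-gated channel genes in 8 of 26 (-0.045). Cplx3, a complexin gene of deep-layer neurons, measured 766, 743, 812 and 646 at 20Hz and 835, 861 and 932 at 40Hz, with 0.24 ± 0.10, and its groups did not overlap.

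Among the remaining lists, clock genes were higher in 7 of 13 members (median 0.037); Tef, a clock-controlled factor gene, measured 863, 617, 754 and 699 at 20Hz and 1059, 899.9 and 958 at 40Hz, with 0.41 ± 0.12, and its groups did not overlap. Glucocorticoid-response genes were higher in 9 of 17 members (0.039), but the median was -0.096 without 20Hz replicate 6 and -0.064 without 40Hz replicate 1. At an unadjusted p under 0.05 the list held 1 gene in each direction, against 1.84% lower and 2.34% higher over all genes tested. These were Nr3c2, given above, at -0.52, and Fkbp5, a brake on the glucocorticoid receptor, at 0.32 ± 0.13. Respiratory chain genes were lower in 56 of 65 (-0.062), ribosomal protein genes in 59 of 75 (-0.057), glycolysis genes in 13 of 19 (-0.047) and cholesterol genes in 14 of 19 (-0.08, and -0.019 without 40Hz replicate 7). Without 40Hz replicate 1 the respiratory chain median turned to 0.029, that of ribosomal genes to 0.020 and that of glycolysis to 0.00067. Against the run of its list, the ribosomal protein gene Rps2 was higher, with 49.4, 149, 46.9 and 56.0 at 20Hz and 120.2, 171 and 165 at 40Hz and 1.17 ± 0.36; many processed copies of ribosomal protein genes exist, so its counts are uncertain. Choroid plexus genes were lower in 7 of 9 (-0.22, and -0.11 with 5 of 9 lower without 40Hz replicate 1), at sums of 553 to 660.4 normalized counts at 20Hz and 487.5 to 559.5 at 40Hz. Dentate gyrus and hippocampal genes were lower in 7 of 11 (-0.35), but without 20Hz replicate 7 the median was -0.042 with 5 of 9 lower, and thalamic and striatal genes in 5 of 10 (-0.0064). The 9 tested genes of the tissue check had a median of 0.072, with 5 higher.

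The 4-month difference was then set beside that of the 5-month mice, which share no animal with it. At 5 months limma called 0 genes and DESeq2 called 9; 472 (4.44%) passed 0.05 in limma before adjustment. Limma's test of the difference between the ages called 0 of 10631 genes, with 389 (3.66%) at an unadjusted p under 0.05 and a smallest adjusted p of 0.852. In 55.5% of all genes the difference had the same direction at both ages. Of the 29 genes with an unadjusted p under 0.05 at both, 13 had the same direction and 16 the opposite.

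At 5 months, 20Hz replicates 1 and 2 had high choroid plexus genes, and the choroid plexus list had a median of -2.43 there against -0.22 at 4 months, so the differences between the ages are also given without these mice. That fit leaves 1 mouse at 20Hz, which is assumed to vary like the other groups. The median of the meningeal list was 0.49 at 4 months and -0.19 at 5 months, where 3 of 18 members were higher. For the difference between the ages, 11 of 18 had an unadjusted p under 0.05, against 3.66% of all genes. That count was between 3 and 12 in the fits that left out 1 of the 14 mice, with 15 to 17 members more positive at 4 months in each; the 3 came without 40Hz replicate 1 of 4 months and without 40Hz replicate 5 of 5 months. The median difference between the ages was 0.80 in all mice and 1.17 without 20Hz replicates 1 and 2. That fit rests on 20Hz replicate 3 alone, and without 20Hz replicate 3 the median was 0.65. For Perp the frequency difference was 1.01 at 4 and -0.71 at 5 months, a difference between the ages of 1.72 (95% interval 0.97 to 2.47). Zic4 had 2.42 and -0.46, with 2.88 (1.58 to 4.18), but passed the minimum mean of 10 at 4 months only through the mice at 40Hz. The homeobox gene Msx2 had 1.14 and -1.21, with 2.35 (1.14 to 3.56). Without 20Hz replicates 1 and 2 these 3 differences were 1.81, 2.93 and 2.28. The Perp level at 5 months was 610.0 ± 172 at 20Hz and 379 ± 136 at 40Hz (SD, n = 3 and n = 4), against 238 ± 18.6 and 489 ± 122 at 4 months (n = 4 and n = 3).

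By smallest p, the other positive genes were Tlcd5, a lipid domain gene (1.27 at 4 months and -0.72 at 5 months), Pcolce, an enhancer of procollagen processing (a difference between the ages of 1.89), and Tmem86a, a lysoplasmalogenase gene (0.77). Without 20Hz replicates 1 and 2 the differences were 1.69 for Tlcd5, 1.60 for Pcolce and 0.91 for Tmem86a. The level of Tlcd5 at 4 months had a mean of 6.70 at 20Hz and 17.6 at 40Hz. Like Zic4, Tlcd5 passed the minimum mean only through the mice at 40Hz, so its place among the genes tested rests on that group. On the negative side, again by smallest p, stood Runx1t1, a transcriptional co-repressor gene (-1.26), the glial connexin gene Gjc3 (-0.51), the factor gene Usf1 (-1.86), the myelin enzyme gene Cnp (-0.57), Opalin (-0.58) and the cytolinker gene Dst (-1.41). Of these 6, Gjc3, Cnp and Opalin are known from oligodendrocytes. Without the same 2 mice, Runx1t1 was at -1.47, Usf1 at -1.58, Dst at -1.81 and Gjc3 at -0.38, while Cnp at -0.36 (95% interval -0.76 to 0.036) and Opalin at -0.27 (-0.65 to 0.12) had intervals that held 0. The median of mature oligodendrocyte genes was -0.18 at 4 and 0.17 at 5 months. For the difference, 6 of 14 had an unadjusted p under 0.05, against 3.66% of all genes. Without 20Hz replicates 1 and 2, at 5 months, the median difference between the ages went from -0.37 to -0.11. Unfolded protein response genes had medians of -0.19 and -0.16, and chaperones had -0.12 and -0.13. For these 2 lists the median difference between the ages was -0.0078 and 0.020 in all 14 mice, and 0.22 and 0.21 without 20Hz replicates 1 and 2. The rapid activity-induced list had -0.26 and -0.059, and its median difference between the ages went from -0.24 to -0.48 without them. For Apoe, whose counts are uncertain, the differences were -0.66 and -0.26, and for Serpina3n -1.07 and -0.84. Without these mice the differences between the ages were -0.53 (-1.16 to 0.089) and -0.70 (-2.08 to 0.68).

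**Figure D5:**
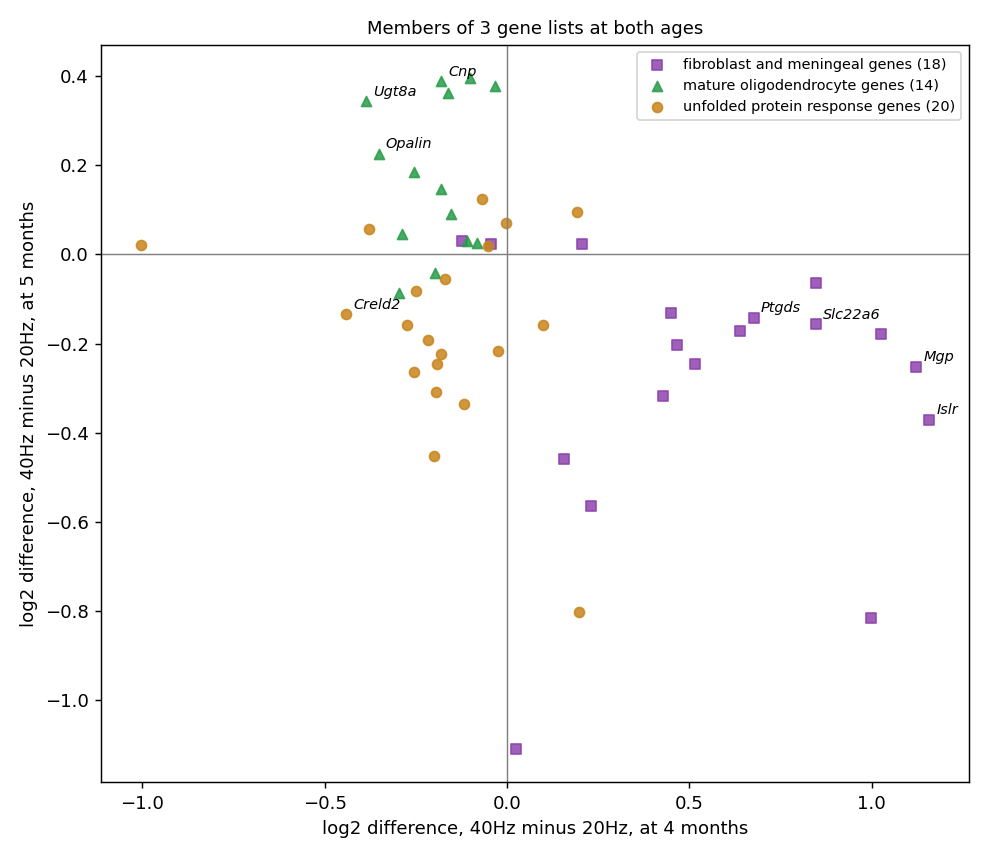
Log2 difference, 40Hz minus 20Hz, at 4 months (x axis) against 5 months (y axis) for the tested members of 3 gene lists. Most fibroblast and meningeal genes lie to the lower right (median 0.49 and -0.19), mature oligodendrocyte genes to the upper left (-0.18 and 0.17), and most unfolded protein response genes to the lower left (-0.19 and -0.16).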

How the data were processed

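Normalized read counts of 12874 genes in 14 mice were deposited as 1 table. Each value is a signal in units of reads that the authors divided by 1 scaling factor per sample; the submitters' processing notes name GRCm39 and DESeq2 without a version or a role, and no source used here names the aligner or counter. Low values fell on whole multiples of 1 step per sample, so reads were recovered (100% of values whole within 0.01). The table held 0 columns without a sample. Recovered depth was 6108717 to 13744933 reads in the 7 mice of 4 months.

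Values were compared as log2(value + 1) with limma 3.58.1 (trend and robust shrinkage, R 4.3.3) in the 7 mice, over genes with a mean of at least 10, with Benjamini-Hochberg adjustment over all 10631 and a threshold of 0.05. The difference between the ages was a contrast in a fit of all 14 mice. edgeR 4.0.16 and DESeq2 1.42.0 were run on the recovered reads. The scripts were tested on simulated data. Limma's p-values set a group difference against the spread among mice of the same group. The spread of each gene is drawn toward a trend over all genes tested. A two-sided exact permutation test of 3 against 4 cannot go below 0.0571. Alternatives were other pseudocounts, filters, scalings and tests, a replicate block, and leaving out each mouse; the fits that left out mice in edgeR and DESeq2 and at 5 months without 20Hz replicates 1 and 2 were chosen after seeing the data.

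The members and the 37 gene lists were chosen with earlier results of these data known. Genes named were the 12 with the smallest p in each direction (predicted genes, clones and LOC symbols left out), a panel of activity, NF-kB and glial genes, those with the smallest p in each list (at most 4), and 6 in each direction by the difference between the ages; not all of these are described, and 1 is not reported here. Replicate numbers 6 and 7 are shared by both groups, but deviations of same-numbered mice correlated at -0.107 and 0.079 across genes, so the numbers were not taken to pair the mice.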

Additional observations from a re-analysis of the deposited data

Results flagged for a closer look

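Among the 4 mice at 20Hz, some values had 1 mouse far from the others. The measure is the gap between the outermost mouse and the next, divided by the range of the group. It was examined for 109 genes and 37 list means, and 13 were marked. Chance alone marks about 1 in 20 independent groups. The values here share the same 4 mice, and most genes were chosen by small p in these data. The count therefore cannot be set against that rate. The causes were not tested. 20Hz replicate 6 was the lowest for Ccn1 (0.958), Junb (0.902), Cavin2 (0.891), Ahsa1 (0.879), Sesn2 (0.875) and the mean of delayed activity-induced genes (0.887). 20Hz replicate 7 was the highest for Fcgr1 (0.903), Tmem119 (0.895), Gng7 (0.839) and the mean of dentate gyrus and hippocampal genes (0.849). 20Hz replicate 4 was the lowest for Zic4 (0.907) and Sst (0.888), and 20Hz replicate 5 the highest for Rps2 (0.847). The levels of these genes in each mouse are given above for Zic4, Cavin2, Gng7, Sst, Sesn2, Fcgr1 and Rps2.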

How the results depend on the processing

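The count of 0 genes called by limma at 4 months was 0 to 2 with 1 mouse left out. It was 1 in edgeR and 8 in DESeq2, which ranged from 0 to 18 and from 1 to 67 with 1 mouse left out, the highest of each without 40Hz replicate 6. With the replicate block, limma called 3 genes; only 2 numbers are shared, and same-numbered mice did not deviate together. The 445 genes at an unadjusted p under 0.05 were 273 at a mean of at least 50 and 334 to 771 with 1 mouse left out. The test of the difference between the ages called 0 to 1 genes with 1 mouse left out, and DESeq2 called 9 at 5 months. Low counts limit precision: the median standard error was 0.34 for genes with a mean of 10 to 50 and 0.093 from 1000. Single genes whose sign turned were few among those named. The difference of Arc ranged from -1.15 to 0.35 with 1 mouse left out, of C1ql2 from -0.998 to 0.029, of Egr1 from -0.24 to 0.24, of Nr4a1 from -0.59 to 0.0099, of Hsp90b1 from -0.19 to 0.024, of Col1a1 from -0.18 to 0.13 and of Cx3cr1 from -0.038 to 0.065. With the replicate block Cx3cr1 was -0.023 and Col1a1 0.0060. Of 1936 refitted values of the 109 named genes, 13 changed sign. Most of these genes were chosen by small p in the same mice, which favours a stable sign, so this count is no measure of robustness. The causes were not tested.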
